A study of Mus musculus with 2 samples.

Results

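The cell cycle and replication genes described here are 36 genes of the mouse genome, found by symbol among the 32285 genes of both libraries. All 36 were present, and each had at least 20 UMIs (unique molecular identifiers, 1 per captured RNA molecule) in the cells kept. By role, 22 are genes of mitosis, 10 are genes of DNA replication and nucleotide supply, 2 are the Cdk subunits Cks1b and Cks2, and 2, Stmn1 and Hmgb2, are known to be abundant in dividing cells but also expressed more widely.

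The study prepared single cells from the cochlea of wild-type CBA/CaJ mice aged 4 to 6 weeks. In the AAV-Isl1 plus noise group, an adeno-associated virus with Isl1, a transcription factor gene of sensory development, was given to the cochlea, and the mice were then exposed to noise of 105 dB at 1 to 20 kHz for 2 hours. The noise-only group was the untreated opposite ear of the same mice, so both groups share the genotype and the noise. Tissue was taken after 2 days, and each group is 1 library from the pooled ears of 5 mice. With 1 library per group no difference has a replicate check and no test between groups was made. The labels state neither the promoter of the vector nor which cells it entered, and name no ear that received a control virus. An effect of Isl1, of the virus, of its delivery or of the dissection of either pool therefore cannot be told apart. The labels call the tissue sensory epithelium, and 328 and 91 kept cells (AAV-Isl1 plus noise and noise only) formed the hair cell-like class, beside glia, endothelium, stria, bone, neuron-marker and blood clusters.

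The matrices hold 24209 barcodes with 40268563 UMIs in the AAV-Isl1 plus noise library and 21068 barcodes with 38330528 UMIs in the noise-only library. Both numbers are far above the about 1600 cells that the labels say were loaded. After filters, 21769 and 18657 cells were kept, with medians of 1084 and 1046 UMIs. The libraries share 145 barcodes, of which 127 were kept in both. Levels are given as CPM, the UMIs of a gene or list per 1000000 UMIs of the cells in question, and each ratio divides the AAV-Isl1 plus noise level by the noise-only level. All intervals are exact and at 95%, and they cover counting error only, since UMIs are treated as independent and the spread between ears is not known. A gene is called higher or lower when it has at least 20 UMIs over both libraries, its ratio is past 1.5-fold and the interval of the ratio leaves out 1.

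A dividing cell copies its DNA in S phase and separates the copies in mitosis, and the genes for each step are transcribed just before they are needed. Replication genes such as Pcna and the Mcm helicase are switched on by E2F factors towards S phase. Mitosis genes such as Top2a, Ccnb1 and Plk1 peak later, through the MuvB complex, which binds the CHR element (TTTGAA), and NF-Y, which binds the CCAAT box, and many of their products are destroyed when mitosis ends. In the adult mammalian cochlea, hair cells, supporting cells and neurons do not normally divide, whereas blood cell precursors in bone marrow divide throughout life and tissue macrophages can renew themselves in place.

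Promoters of 4 members are shown with any letters that these factors are known for in capitals. They are those of the mitosis genes Mki67 and Birc5 and of the replication genes Rrm1 and Mcm6, which have the most UMIs of their roles among members whose window lies upstream of the whole annotated gene. Each window is the 250 bases before the transcript start in RefSeq (GRCm38.p6), read in the direction of the gene, on chr7:135716380-135716629 (minus strand), chr11:117848987-117849236 (plus), chr7:102441445-102441694 (plus) and chr1:128359706-128359955 (minus). Capitals mark TTTGAA of the CHR element, the CCAAT box, and any of 4 sets of E2F letters, which are TTTCCCGC, TTTCGCGC, TTTGCCGC and TTTGGCGC, on either strand.
Mki67: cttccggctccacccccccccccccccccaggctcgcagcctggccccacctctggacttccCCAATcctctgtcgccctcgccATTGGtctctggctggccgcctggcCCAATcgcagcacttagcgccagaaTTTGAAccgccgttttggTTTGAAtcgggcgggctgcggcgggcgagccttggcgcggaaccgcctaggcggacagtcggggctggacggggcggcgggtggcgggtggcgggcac
Birc5: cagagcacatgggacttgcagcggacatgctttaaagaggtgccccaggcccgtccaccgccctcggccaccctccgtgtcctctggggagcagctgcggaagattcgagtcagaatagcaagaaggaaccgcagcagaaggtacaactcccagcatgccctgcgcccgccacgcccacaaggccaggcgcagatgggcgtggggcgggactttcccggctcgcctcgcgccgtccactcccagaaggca
Rrm1: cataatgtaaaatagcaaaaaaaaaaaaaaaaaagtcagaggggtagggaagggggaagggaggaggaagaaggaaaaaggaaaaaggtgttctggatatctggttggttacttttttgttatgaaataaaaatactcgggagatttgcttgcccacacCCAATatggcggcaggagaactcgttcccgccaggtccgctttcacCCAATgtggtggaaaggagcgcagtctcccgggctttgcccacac
Mcm6: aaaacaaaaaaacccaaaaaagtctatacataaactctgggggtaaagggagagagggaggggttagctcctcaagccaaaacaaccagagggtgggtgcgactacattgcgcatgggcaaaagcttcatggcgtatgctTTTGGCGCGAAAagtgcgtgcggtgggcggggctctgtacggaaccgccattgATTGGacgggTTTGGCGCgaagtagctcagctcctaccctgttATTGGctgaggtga
The Mki67 window held 2 TTTGAA and 3 CCAAT matches, and the Birc5 window held none. The Rrm1 window held 2 CCAAT matches, and the Mcm6 window held 2 CCAAT and 3 E2F matches, of which 2 overlap on opposite strands. RefSeq windows were found for 30 of the 36 members. CCAAT was present in 16 of 18 windows of mitosis members and 8 of 9 of replication members, against 34.5% of 27025 windows of all genes. TTTGAA was present in 7 of 18 and 1 of 9, against 16.3% of all genes. The E2F letters were present in 1 of 18 and 3 of 9, against 1.91% of all genes. A match describes the letters and is not evidence of a bound factor.

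The mitosis genes as a group were higher in the AAV-Isl1 plus noise library. Their summed level was 175.9 CPM (6355 UMIs) in the AAV-Isl1 plus noise library and 65.8 CPM (2195 UMIs) in the noise-only library, a ratio of 2.67 (interval 2.55 to 2.81). Of the 22, 20 were called higher and none lower, and the ratio was above 1 in all 22, with a median of 1.47 on the log2 scale. Over all 17138 genes measured, 5.99% were called higher and 2.36% lower, and the median was -0.02. With the limit at 2-fold, 16 in place of 25 of the 36 members were called higher, but no share of all genes is given at that limit.

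Mki67, whose product coats mitotic chromosomes and which is the standard label of cycling cells, had 965 UMIs (26.7 CPM) in the AAV-Isl1 plus noise library and 238 UMIs (7.13 CPM) in the noise-only library, a ratio of 3.74 (3.25 to 4.33). Only 344 and 75 cells held a UMI of it, so its level rests on few cells. Top2a, the topoisomerase that untangles chromosome copies, had 663 and 161 UMIs (18.4 and 4.83 CPM), a ratio of 3.80 (3.197 to 4.55), the highest of the 22. Cenpa, the histone that marks centromeres, had 15.4 and 9.08 CPM, a ratio of 1.69 (1.47 to 1.95). Ube2c, the enzyme that tags mitotic cyclins for destruction, had 18.3 and 5.81 CPM, a ratio of 3.14 (2.67 to 3.71). Cenpa was therefore less unequal between the libraries than the other abundant mitosis genes, and 71.0% and 53.5% of its UMIs lay in the blood clusters described below, where Mki67 had 90.7% and 94.96% of its own.

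The mitotic kinase Cdk1 and its cyclins Ccna2, Ccnb1 and Ccnb2 had ratios of 2.92, 3.75, 3.201 and 2.75. The chromosomal passenger Birc5 and the spindle and chromosome proteins Nusap1, Cenpf and Kif11 had ratios of 3.23, 2.99, 3.14 and 3.77. The kinetochore motor Cenpe (1.54), the spindle factor Tpx2 (1.84), the kinesins Kif23 (1.81) and Kif20a (1.75), the kinases Plk1 (2.17) and Aurka (1.82), and the checkpoint kinases Bub1 and Bub1b (both 2.77) were also called higher. Cdc20, an activator of the anaphase-promoting complex, had 133 and 94 UMIs, a ratio of 1.31 (0.996 to 1.72), and the kinase Aurkb had 58 and 36 UMIs, a ratio of 1.49 (0.965 to 2.32). Neither was called.

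The replication genes differed less. Their summed level was 150.3 CPM (5430 UMIs) in the AAV-Isl1 plus noise library and 132.3 CPM (4413 UMIs) in the noise-only library, a ratio of 1.14 (1.09 to 1.18). Of the 10, 3 were called higher and none lower, against 5.99% and 2.36% of all genes measured. Pcna, the sliding clamp of DNA polymerase and the most abundant, had 54.9 and 55.8 CPM, a ratio of 0.983 (0.923 to 1.05). Rrm1, the large subunit of ribonucleotide reductase, had 20.2 and 17.4 CPM (1.16, 1.04 to 1.30), and Mcm7 of the replicative helicase had 17.2 and 16.1 CPM (1.07, 0.948 to 1.20). These abundant members were read from many cells, with a UMI of Pcna in 1724 and 1655 cells.

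The members called higher were Rrm2, Mcm2 and Mcm5. Rrm2, the small subunit of ribonucleotide reductase that is made only around S phase, had 244 UMIs (6.75 CPM) in the AAV-Isl1 plus noise library and 30 UMIs (0.899 CPM) in the noise-only library, a ratio of 7.51 (5.13 to 11.4) and the highest of the 36. The 2 subunits of this enzyme therefore differed from each other between the libraries, since their intervals do not meet. Mcm2 and Mcm5 had ratios of 1.71 and 1.52, while Mcm3, Mcm4 and Mcm6 had 1.17, 0.961 and 1.26 and Tyms, which makes thymidylate, had 1.47, all uncalled.

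Of the Cdk subunits, Cks2 had 862 UMIs (23.9 CPM) and 322 UMIs (9.65 CPM), a ratio of 2.47 (2.17 to 2.82), and Cks1b had 16.2 and 12.7 CPM, a ratio of 1.28 (1.13 to 1.45). Hmgb2, a chromatin protein of cycling and blood cells, had 165.3 and 88.0 CPM, a ratio of 1.88 (1.80 to 1.96). Stmn1, a regulator of microtubules that is also abundant in glia and neurons, had 438.5 and 507.2 CPM, a ratio of 0.865 (0.846 to 0.884), within the 1.5-fold limit. Stmn1 had 15842 and 16922 UMIs, more than any other member, so a sum over all 36 would lean on it. Its level was 3544 and 3758 CPM in the oligodendrocyte or astrocyte-like class and 1499 and 1655 CPM in the Schwann or satellite glia-like class, where mitosis genes were sparse, and it is read apart from the rest.

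**Figure D1:**
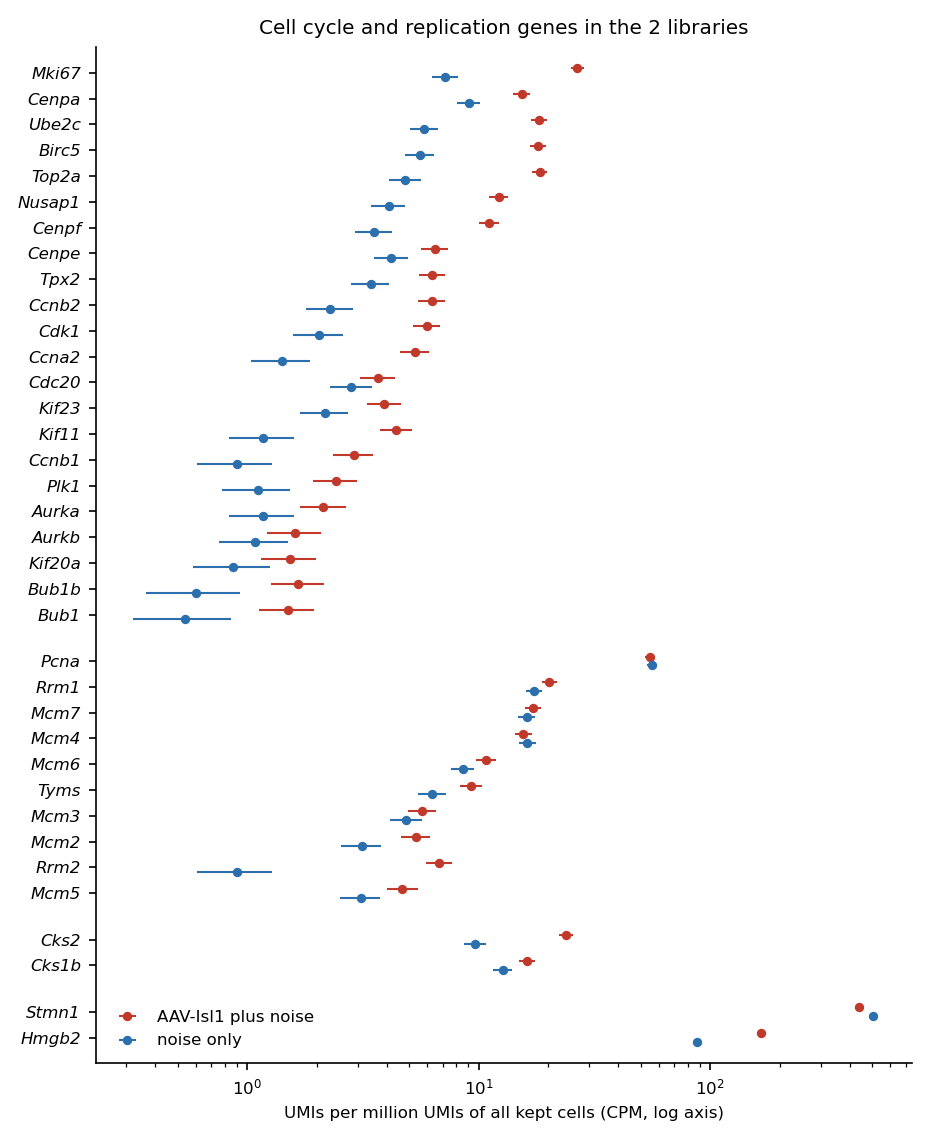
Level of each of the 36 members over all kept cells, in CPM on a log axis, in the AAV-Isl1 plus noise library (red, upper point) and the noise-only library (blue, lower point). Lines are exact 95% Poisson intervals, and genes are grouped from top to bottom as mitosis, replication, Cdk subunits, and Stmn1 and Hmgb2; all 22 mitosis points lie further right in the AAV-Isl1 plus noise library, while Pcna overlaps.

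Cells were then grouped into 29 clusters made without the members and without 129 further cell cycle genes, so that cycling cells would not form a cluster of their own. By fixed markers and a check of leading genes, 18 clusters were named, giving 14 classes, and 11 stayed unnamed. Clusters 11, 15, 18 and 23 hold blood and immune cells. Cluster 11 is macrophage or monocyte-like, cluster 15 is erythroid-like and cluster 23 is neutrophil or granulocyte precursor-like. Cluster 18 had the most markers for T or NK cells but was led by the immunoglobulin genes Igkc and Iglc2 together with the T cell genes Cd3e and Cd3g, so it is called cluster 18 below. To count dividing cells, a cell is called mitosis-positive when it holds UMIs of at least 3 different mitosis members, since a single UMI can be free RNA.

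Most mitosis-positive cells were blood or immune cells. There were 351 among 21769 cells (1.61%, 1.45 to 1.79) in the AAV-Isl1 plus noise library and 86 among 18657 cells (0.461%, 0.369 to 0.569) in the noise-only library. The 4 blood clusters held 307 of the 351 (87.5%) and 76 of the 86 (88.4%), although they made up 13.3% and 5.01% of the kept cells. Cells with at least 10 of the 22 mitosis genes numbered 110 and 28, and 106 and 28 of these lay in the blood clusters. The 4 clusters also held 83.1% and 72.4% of all mitosis UMIs but 30.4% and 10.5% of the replication UMIs. Thinned to 1000 UMIs per cell, with 9820 and 8877 shallower cells left out, 238 of 11949 cells (1.99%) and 45 of 9780 cells (0.460%) were mitosis-positive.

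The class that held the dividing cells was not the same in the libraries. In the AAV-Isl1 plus noise library, 134 of the 351 mitosis-positive cells were erythroid-like, 87 macrophage or monocyte-like, 48 neutrophil or granulocyte precursor-like and 38 in cluster 18. In the noise-only library, 66 of the 86 were macrophage or monocyte-like, 5 neutrophil or granulocyte precursor-like, 4 in cluster 18 and 1 erythroid-like. Erythroid-like cells thus made up 38.2% (33.1 to 43.5) of the mitosis-positive cells in the AAV-Isl1 plus noise library and 1.16% (0.0294 to 6.31) in the noise-only library, while macrophages made up 24.8% (20.4 to 29.6) and 76.7% (66.4 to 85.2).

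**Figure D2:**
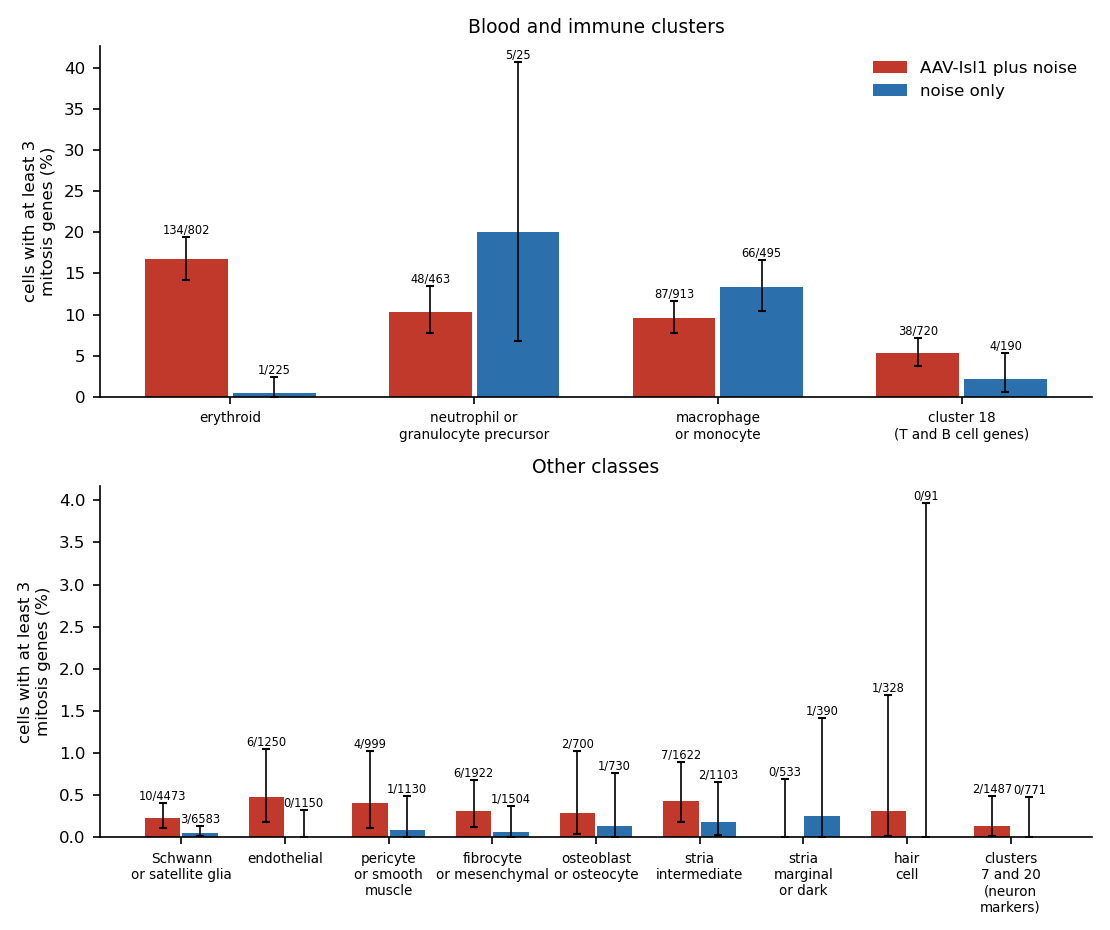
Share of the cells of each class that hold UMIs of at least 3 of the 22 mitosis genes, in percent, in the AAV-Isl1 plus noise library (red, left) and the noise-only library (blue, right), with exact 95% Clopper-Pearson intervals and the counts above each bar. The upper panel shows the blood and immune clusters, where shares reach 20.0%, and the lower panel the other classes on a narrower axis, where no share passes 0.480%.

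Within the erythroid-like class, the mitosis genes were at 1576 CPM (1516 to 1639) in the AAV-Isl1 plus noise library and 68.9 CPM (49.0 to 94.2) in the noise-only library, a ratio of 22.9 (16.7 to 32.3). Mitosis-positive cells were 134 of 802 (16.7%, 14.2 to 19.5) and 1 of 225 (0.444%, 0.0113 to 2.45). Mki67 had 508 UMIs and 1 UMI, Top2a 246 UMIs and 1 UMI, and Birc5 282 UMIs and 0. Hmgb2 had 740.4 and 68.9 CPM, Stmn1 401.6 and 323.3 CPM. Of the 36 members, 32 had enough UMIs, and 30 were called higher and none lower, against 8.36% and 5.35% of the 7512 genes measured in this class. Of the UMIs of these cells, hemoglobin made up 43.1% in the AAV-Isl1 plus noise library and 44.5% in the noise-only library, and the medians were 1943 and 2298 UMIs per cell.

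To see which erythroid and other blood cells carried these genes, the cells of the 4 blood clusters were grouped again into 19 sub-clusters, a step chosen after the first result was seen and also made without the cell cycle genes. A sub-cluster can therefore hold cells of more than 1 blood cluster. Sub-cluster 10, led by the erythroid precursor genes Rhag, Hemgn, Kel and Gata1, held 144 cells of the AAV-Isl1 plus noise library and 2 cells of the noise-only library. In it, 116 of 144 cells (80.6%, 73.1 to 86.7) and 1 of 2 were mitosis-positive. The mitosis genes stood at 6635 CPM (6363 to 6916) in the 144 cells and at 4324 CPM (2938 to 6138) in the 2. In the 144 cells Mki67 reached 1348 CPM, Ube2c 865 CPM, Birc5 764 CPM and Rrm2 421 CPM, and Hmgb2 3048 CPM. The 2 noise-only cells had 18 UMIs of Ube2c, 1 of Mki67 and none of any replication member, too few for a comparison.

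The hemoglobin-rich sub-clusters 3, 6, 11 and 13, of which 11 and 13 stayed unnamed, held more cells. Sub-cluster 3 held 249 and 101 cells with 218 and 19.3 CPM of mitosis genes, and sub-cluster 6 held 175 and 64 cells with 176 and 6.04 CPM. Across all 4, the AAV-Isl1 plus noise cells ranged from 165 to 272 CPM and the noise-only cells from 6.04 to 19.3 CPM, all far below sub-cluster 10. Erythroid-like cells that were mitosis-positive in the AAV-Isl1 plus noise library also carried more of the early erythroid list (728 CPM in 134 cells, against 59.0 CPM in the other 668), and hemoglobin took 39.8% and 43.9% of their UMIs. The late erythroid list was at 3137 and 871 CPM in these 134 and 668 cells. In the noise-only library the 1 mitosis-positive cell had 1 UMI of the early list and 29 of the late list. The other 224 had 46.3 CPM (30.2 to 67.8) of the early list and 426 CPM (373 to 483) of the late list. The late list thus differed between the libraries among cells that were not mitosis-positive, with intervals that do not meet (821 to 924 in the AAV-Isl1 plus noise library). Sub-cluster 10 also held cells that were not mitosis-positive, and the part of these cells in the difference was not tested. Marrow erythroblasts are known to divide while they already make hemoglobin, and to lose the nucleus later.

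The neutrophil or granulocyte precursor-like class had 463 cells in the AAV-Isl1 plus noise library and 25 in the noise-only library, so it is described and not compared. Mitosis genes were at 839 CPM (776 to 905) and 1399 CPM (1127 to 1718), and 48 of 463 cells (10.4%, 7.74 to 13.5) and 5 of 25 (20.0%, 6.83 to 40.7) were mitosis-positive. Hmgb2 led the members with 1769 and 2322 CPM, followed by Stmn1 (308.6 and 538.3 CPM) and Cks2 (199.7 and 323.0 CPM). The mitosis genes lay in cells making granule proteins, read here by sub-clusters that need not lie wholly within the class. Sub-cluster 4, led by the secondary granule genes Ngp, Ltf and Camp, held 44 of 315 and 5 of 15 mitosis-positive cells, at 1092 and 1875 CPM. Sub-cluster 15, led by the primary granule genes Mpo, Elane and Prtn3 of granulocyte progenitors, held 9 of 51 and 0 of 5. The 25 noise-only cells of the class held no UMI of the granulocyte progenitor list, which includes these genes, so sub-cluster 15 reaches beyond the class. In the AAV-Isl1 plus noise cells of sub-cluster 15 the replication genes were at 952 CPM (782 to 1149) and the mitosis genes at 743 CPM (593 to 918), so the intervals overlap. Sub-cluster 9, led by Retnlg and Cxcr2 of mature neutrophils, held 0 of 149 and 0 of 10, at 32.7 and 58.8 CPM.

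Cluster 18 had mitosis genes at 692 CPM (637 to 751) in the AAV-Isl1 plus noise library and 314 CPM (242 to 402) in the noise-only library, a ratio of 2.20 (1.70 to 2.90), and 38 of 720 cells (5.28%, 3.76 to 7.17) and 4 of 190 (2.11%, 0.576 to 5.30) were mitosis-positive. Hmgb2 (683.9 and 424.1 CPM), Stmn1 (466.8 and 294.3 CPM) and Pcna (115.8 and 94.8 CPM) had the most UMIs. Of 24 members measured, 11 were called higher and none lower, against 4.5% and 6.24% of 5801 genes. The sub-clusters drew these apart. Sub-cluster 16, led by Dntt, Vpreb1 and Igll1 of B cell precursors, held 49 cells of the AAV-Isl1 plus noise library and 3 of the noise-only library. Of the 49, 22 (44.9%, 30.7 to 59.8) were mitosis-positive, with 3945 CPM of mitosis genes and 2002 CPM of replication genes, the highest replication level of any sub-cluster. None of the 3 held a UMI of either list, and their median was 552 UMIs. Sub-cluster 0, led by T and NK cell genes such as Cd3e and Trbc2, held 418 and 109 cells with 296 CPM (243 to 357.5) and 420 CPM (314 to 551), a ratio of 0.705 (0.502 to 1.00), so its ratio lay on the other side of 1 from that of cluster 18 as a whole. The T or NK cell-like class of a separate clustering, with genes scaled within each library, had a ratio of 0.689. Mature B cells of sub-cluster 8 held 0 of 126 and 0 of 54 mitosis-positive cells, and plasma cells of sub-cluster 14 held 1 of 62 and 0 of 2.

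Macrophages held many dividing cells in both libraries. The macrophage or monocyte-like class had mitosis genes at 1048 CPM (995 to 1102) in 913 cells of the AAV-Isl1 plus noise library and 1293 CPM (1226 to 1363) in 495 cells of the noise-only library, a ratio of 0.810 (0.752 to 0.872). Mitosis-positive cells were 87 (9.53%, 7.70 to 11.6) and 66 (13.3%, 10.5 to 16.7). Mki67 had 147.3 and 185.2 CPM, Birc5 117.5 and 129.6 CPM and Top2a 112.7 and 115.7 CPM. Among all 36 members Hmgb2 (585.6 and 605.5 CPM), Stmn1 (369.9 and 437.0 CPM) and Mki67 had the most UMIs here. Of 35 members measured, 3 were called lower and none higher, against 2.43% and 4.88% of 8753 genes.

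The lower level in macrophages of the AAV-Isl1 plus noise library was small and changed with the cells counted. With the 5 cells of most mitosis UMIs left out of each library the ratio was 0.970. These 5 were picked over the whole library, so the number of macrophages among them can differ between the libraries. That ratio therefore cannot show whether the macrophage level rests on few cells. With every cell thinned to 1000 UMIs the ratio was 0.932. The thinned shares were 8.47% (58 of 685, 6.49 to 10.8) and 9.41% (37 of 393, 6.72 to 12.7). The sub-clusters named below need not lie wholly within the class, and they differed in size. Sub-cluster 1, led by Ccl24, Cd163 and Lyve1 of tissue-resident macrophages, held 238 and 251 cells at 1637 and 1420 CPM, a ratio of 1.15 (1.05 to 1.27), and sub-cluster 5 held 153 and 122 cells at 1948 and 1330 CPM, a ratio of 1.46 (1.21 to 1.78). Both were above 1, whereas the class as a whole was below 1. The groups with lower levels had more AAV-Isl1 plus noise cells. Sub-cluster 2, unnamed and led by Ccl8 and the MHC class II genes H2-Ab1 and H2-Eb1, held 300 and 62 cells at 621 and 859 CPM, and sub-cluster 7, led by Ccr2, Arg1 and other genes of inflammatory monocytes, held 173 and 27 cells at 574 and 53.9 CPM. Sub-cluster 12, with P2ry12 and Cx3cr1, held 73 and 50 cells at 996 and 1259 CPM.

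Markers of tissue macrophages and of other blood cells were read in the mitosis-positive macrophages and in the others. In the AAV-Isl1 plus noise library the complement gene C1qa was at 4478 CPM in the 87 mitosis-positive cells and 4203 CPM in the other 826, Cx3cr1 at 650 and 713 CPM, the mannose receptor Mrc1 at 463 and 469 CPM and Adgre1 at 104 and 113 CPM. In the noise-only library C1qa was at 4885 CPM in 66 cells and 5039 CPM in 429, and Cx3cr1 at 670 and 803 CPM. There Mrc1 was at 516 CPM (424 to 621) and 760 CPM (703 to 821) and Adgre1 at 75.0 CPM (42.9 to 122) and 150.0 CPM (125 to 178), lower in the mitosis-positive cells, with intervals that do not meet. Ccr2, a receptor of monocytes that arrive from blood, was at 65.0 and 150 CPM in the AAV-Isl1 plus noise library and at 0 (no UMI in 66 cells) and 72.7 CPM in the noise-only library. Ly6c2 and F13a1, of the same marker list, did not follow Ccr2 in the AAV-Isl1 plus noise library. There Ly6c2 was at 108 CPM (70.1 to 160) and 137 CPM (117 to 160), and F13a1 at 221 CPM (164 to 290) and 216 CPM (190 to 243). In the noise-only library Ly6c2 was at 9.38 and 18.5 CPM and F13a1 at 197 and 363 CPM. Mpo and Elane of granulocyte progenitors had 5 and 14 UMIs in the 87 mitosis-positive cells and none in the other 826 cells of the AAV-Isl1 plus noise library, and none in the noise-only library. The mitosis-positive cells were deeper, with medians of 2529 and 1306 UMIs in the AAV-Isl1 plus noise library and 2912 and 1791 UMIs in the noise-only library.

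**Figure D3:**
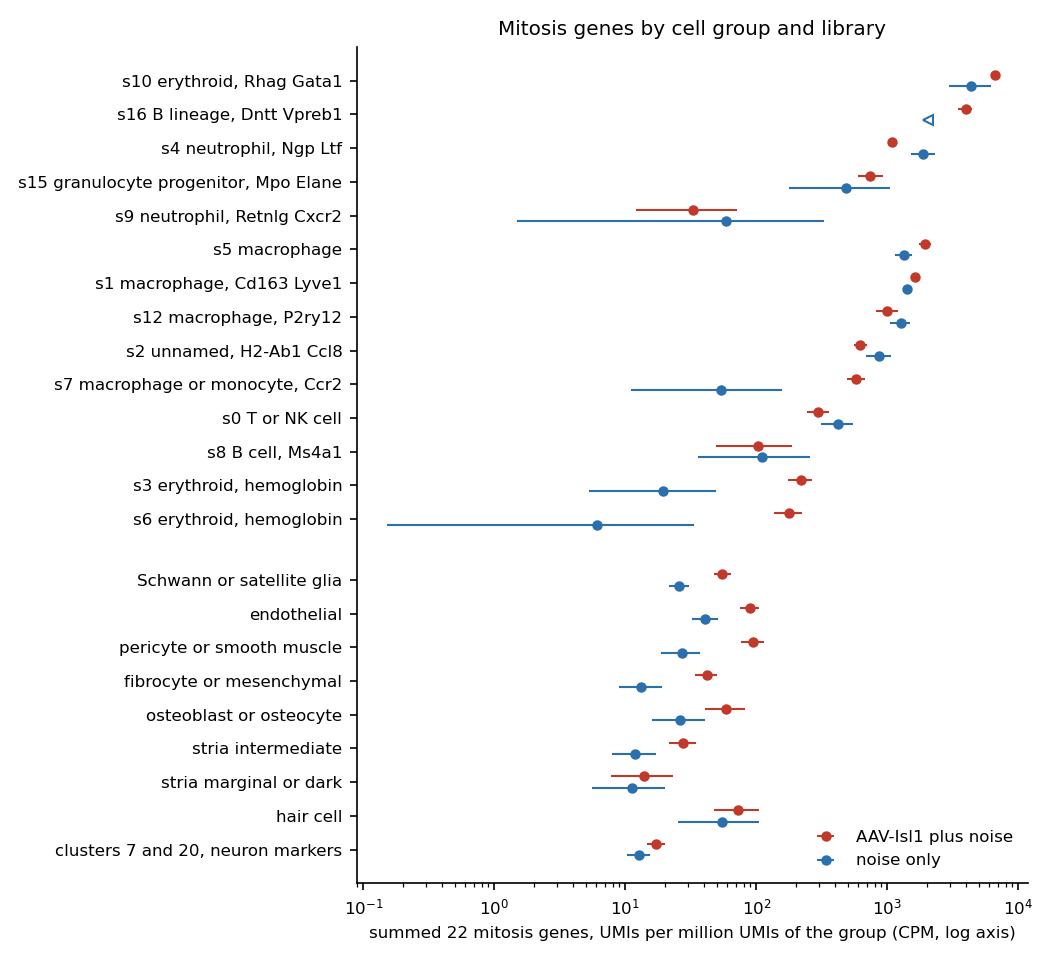
Summed level of the 22 mitosis genes in blood sub-clusters (upper block) and in other classes (lower block), in CPM of the group on a log axis, for the AAV-Isl1 plus noise library (red, upper point) and the noise-only library (blue, lower point), with exact 95% Poisson intervals. An open triangle marks the upper limit of a group with no UMI; sub-clusters 10 and 16 stand highest in the AAV-Isl1 plus noise library, and every class of the lower block lies below 100 CPM.

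The members differed among the dividing groups as well as between them. Replication UMIs per mitosis UMI in the AAV-Isl1 plus noise library were 0.269 in erythroid sub-cluster 10, 0.507 in B cell precursor sub-cluster 16, 0.196 in neutrophil precursor sub-cluster 4 and 1.28 in granulocyte progenitor sub-cluster 15. In macrophage sub-cluster 1 the figure was 0.229 in the AAV-Isl1 plus noise library and 0.234 in the noise-only library. Rrm2 was uneven across these groups. It stood at 93.1 CPM in erythroid-like cells of the AAV-Isl1 plus noise library, where 150 of its 244 UMIs lay, with no UMI in the noise-only erythroid-like cells. In macrophages it was at 8.30 and 14.8 CPM, although Mki67 there was at 147.3 and 185.2 CPM.

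**Figure D4:**
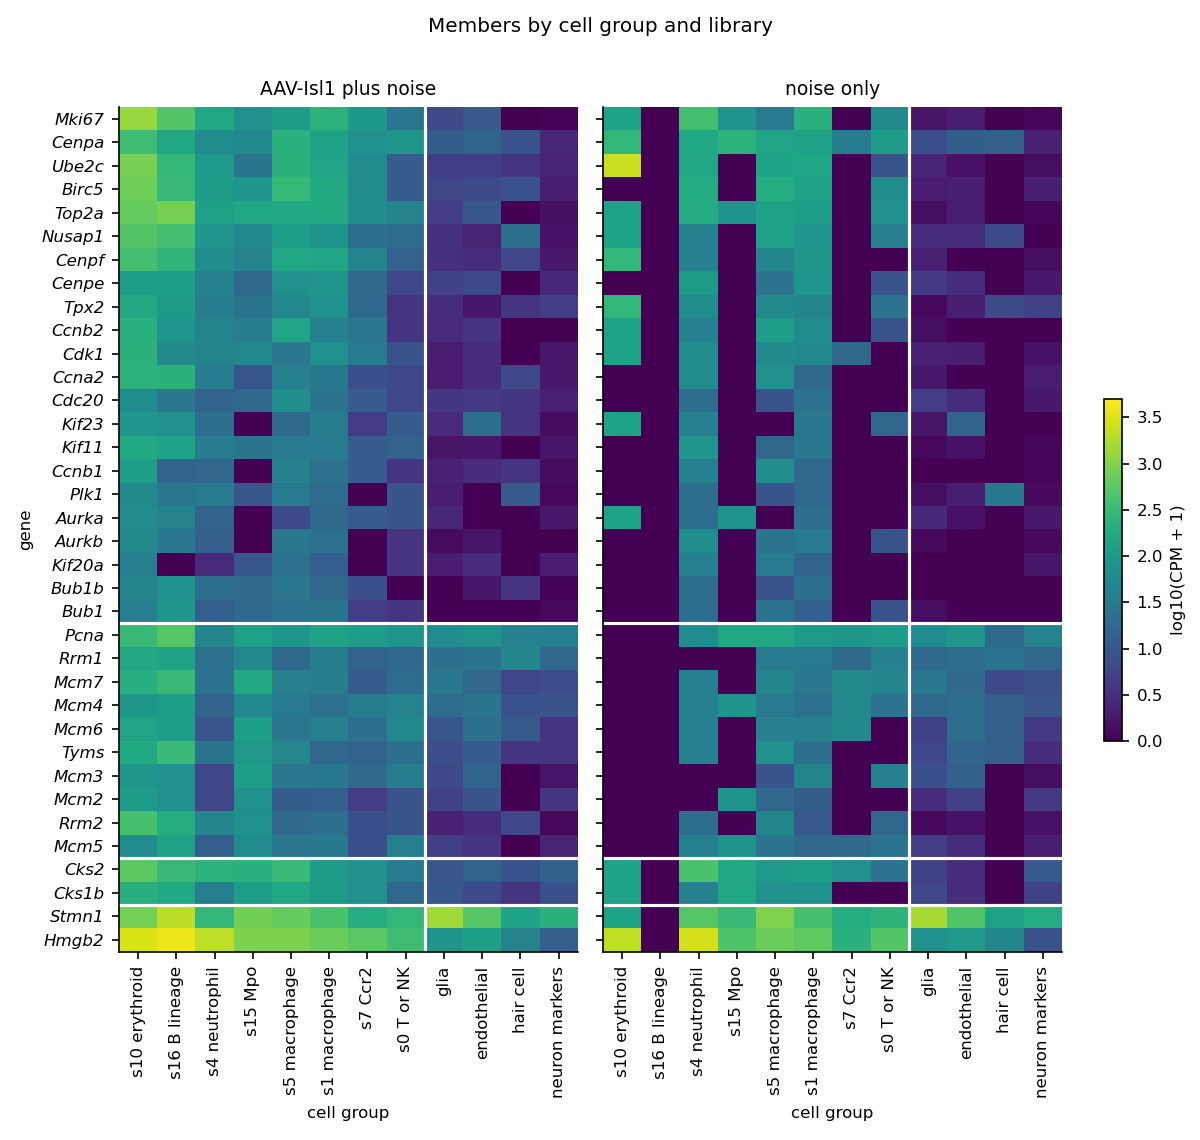
Level of each member (rows, ordered as mitosis, replication, Cdk subunits, and Stmn1 and Hmgb2) in 8 blood sub-clusters and 4 other groups (columns), as log10(CPM + 1), in the AAV-Isl1 plus noise library (left) and the noise-only library (right). In the noise-only panel sub-clusters 10 and 16 rest on 2 and 3 cells, while macrophage sub-cluster 1 holds 238 and 251 cells.

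Outside the 4 blood clusters the mitosis genes were lower in level in both libraries. Their level was 34.04 CPM (32.0 to 36.1) in 18871 cells of the AAV-Isl1 plus noise library and 19.2 CPM (17.7 to 20.8) in 17722 cells of the noise-only library, a ratio of 1.77 (1.60 to 1.96). Mitosis-positive cells were 44 (0.233%, 0.169 to 0.313) and 10 (0.0564%, 0.0271 to 0.104), and 13 of 9968 and 2 of 9081 after thinning. The replication genes were at 120.2 and 125.6 CPM, a ratio of 0.957 (0.915 to 1.00). Of the 33 members measured there, 14 were called higher, 12 of them mitosis genes, and none lower, against 4.34% and 2.04% of 16681 genes. Mki67 was at 2.86 and 0.381 CPM and Top2a at 2.42 and 0.413 CPM.

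Neurons and hair cells, which are not known to divide in the adult cochlea, are given for comparison. Clusters 7 and 20, left unnamed although 17 and 16 neuron markers passed in them, had 17.1 CPM (14.6 to 19.9) and 12.6 CPM (10.3 to 15.4) of mitosis genes at medians of 6537 and 10280 UMIs per cell, and 2 of 1487 cells (0.134%, 0.0163 to 0.485) and 0 of 771 (which allows up to 0.389%) were mitosis-positive. The hair cell-like class, described only because the noise-only library had 91 cells, had 28 UMIs (71.8 CPM, 47.7 to 104) and 9 UMIs (54.8 CPM, 25.1 to 104), with 1 of 328 and 0 of 91 mitosis-positive cells. Neither Mki67 nor Top2a had a UMI in hair cell-like cells of either library. By counting error alone, 0 of 328 and 0 of 91 cells allow shares of up to 0.915% and 3.30% with a UMI of Mki67.

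Glia were the largest class, with 4473 and 6583 Schwann or satellite glia-like cells. Their mitosis level was 55.1 CPM (47.5 to 63.6) and 25.9 CPM (21.7 to 30.6), a ratio of 2.13 (1.70 to 2.68), and 10 (0.224%, 0.107 to 0.411) and 3 (0.0456%, 0.00940 to 0.133) cells were mitosis-positive. In both libraries the interval of the glial level lies above that of the neuron-marker clusters but overlaps that of the hair cell-like class. The hair cell-like level was higher than the glial level, at 71.8 and 54.8 CPM. Shares of cells are not set against the neuron-marker clusters, since glial cells had medians of 663 and 704 UMIs. The part of free RNA in the CPM of cells this shallow was not tested. The glial level is therefore not read as above that of cells that do not divide. After thinning, 1 of 651 and 0 of 1137 glial cells were mitosis-positive. Mki67 had 21 and 3 UMIs and Top2a 13 and 2 UMIs in the whole class. Of 19 members measured in this class, 7 were called higher and none lower, against 4.53% and 1.15% of 11702 genes. With a stricter filter (500 genes, 10% mitochondrial) the mitosis ratio was 1.16. Of the 3 glial clusters, clusters 0 and 1 stood at 45.3 and 21.54 CPM and at 54.6 and 30.7 CPM, and cluster 25, led by Fabp7 and Npy, had 24 UMIs in 112 cells (261 CPM) and 6 UMIs in 302 cells (25.6 CPM), with 23 of the 24 in 1 cell. Oligodendrocyte or astrocyte-like cells had 7 and 2 mitosis UMIs and no mitosis-positive cell among 140 and 91.

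Among vascular cells, the endothelial-like class had 89.2 CPM (74.9 to 105) in 1250 cells and 40.5 CPM (32.0 to 50.6) in 1150 cells, a ratio of 2.20 (1.65 to 2.94), with 6 (0.480%, 0.176 to 1.04) and 0 (up to 0.261%) mitosis-positive cells, and 4 of 657 and 0 of 770 after thinning. The pericyte or smooth muscle-like class had 94.2 and 26.9 CPM, with 4 of 999 and 1 of 1130 (ratio 3.51). The fibrocyte or mesenchymal-like class had 41.6 and 13.3 CPM, with 6 of 1922 and 1 of 1504 (ratio 3.14), and the osteoblast or osteocyte-like class 58.5 and 26.1 CPM, with 2 of 700 and 1 of 730. The endothelial ratio was 1.55 (1.13 to 2.15) with the stricter filter and 1.73 (1.25 to 2.40) with genes scaled within libraries. In its other alternatives it lay between 2.05 and 2.20. The fibrocyte ratio was 1.15 with the stricter filter, 1.44 with thinned cells, 1.16 with genes scaled within libraries and 1.83 at clustering resolution 0.5. The pericyte ratio was 2.10 with cell cycle genes kept for clustering and 1.77 with genes scaled within libraries. The unnamed cluster 28, in which 5 erythroid markers passed and which was led by genes including Hbb-bt and Alas2, had 47 mitosis UMIs in 53 cells (172 CPM, 127 to 229) and 3 UMIs in 7 cells (39.2 CPM, 8.08 to 114). Of these cells 3 and 0 were mitosis-positive, and 17 of the 47 UMIs lay in 1 cell. Epithelial groups held few mitosis UMIs. The stria marginal or dark cell-like class had 15 and 11 mitosis UMIs (14.0 and 11.2 CPM), with 0 of 533 and 1 of 390 mitosis-positive cells, and 29 and 49 ciliated or middle ear epithelium-like cells held 1 and 2 mitosis UMIs. Unnamed clusters 5 and 16, in which 8 and 5 cochlear non-sensory epithelium markers passed, had 23.1 and 26.0 CPM and 15.0 and 14.4 CPM, with 1 mitosis-positive cell among 893 and 0 among 977 in cluster 5 and none in cluster 16. Stria intermediate cell-like cells, which are pigment cells, had 27.5 and 11.9 CPM, with 7 of 1622 and 2 of 1103.

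The higher level outside the blood clusters was spread over many clusters and came with higher levels of blood genes. Of 23 such clusters with enough cells to compare, cluster 28 not among them, the mitosis ratio was above 1 in 21, with an interval above 1 in 11 and a median of 1.80. In the same 23 clusters the hemoglobin genes had a median ratio of 2.68, above 1 in 20, and the neutrophil granule genes a median ratio of 15.4, above 1 in all 23. The replication genes had a median ratio of 1.05 there. Of the 44 mitosis-positive cells outside the blood clusters in the AAV-Isl1 plus noise library, 23 (52.3%) held at least 2 UMIs of an erythroid, macrophage, neutrophil or B precursor marker list, against 739 of the other 18827 cells (3.93%). In the noise-only library 6 of 10 did, against 193 of 17712 (1.09%), and all 6 through the macrophage list. The mitosis-positive cells were deeper, with medians of 1866 and 1049 UMIs in the AAV-Isl1 plus noise library. The part of blood RNA in these results was not tested. Without the mitosis-positive cells the level outside the blood clusters was 22.4 and 17.8 CPM, a ratio of 1.25 (1.12 to 1.40). The cells left out were picked by the same mitosis genes, so both levels had to fall, and no conclusion is drawn from this ratio.

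The difference between the libraries was then split by class. The mitosis genes differed by 110 CPM over all kept cells. With the 29 clusters as groups, 57.9 CPM (52.6%) came from the shares of UMIs that each cluster had in the 2 libraries, and 52.2 CPM (47.4%) from levels within clusters. Cluster 15, the erythroid-like class, gave 69.1 CPM in all, of which 22.7 CPM was share and 46.4 CPM level. With the blood clusters divided into sub-clusters, the share part was 75.7 CPM (68.7%) and the level part 34.4 CPM (31.3%). Most of the erythroid level difference was then counted as the share of sub-cluster 10. That sub-cluster was made after the first result was seen, and most of its AAV-Isl1 plus noise cells were mitosis-positive. Its noise-only level rests on 2 cells, so its own split into share and level is uncertain. Sub-cluster 10 alone gave 61.1 CPM, of which 50.0 CPM was its share of UMIs, 0.934% and 0.0215%. With shares of cells and UMIs per cell in place of shares of UMIs, 80.1% was share.

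Of the other groups, sub-cluster 4 of neutrophil precursors gave 14.7 CPM, with 21.4 CPM from its share and -6.78 CPM from its level. Sub-cluster 16 of B cell precursors gave 7.42 CPM. Macrophage sub-cluster 1 gave -10.7 CPM, with -14.3 CPM from its share, as it held 1.20% of the UMIs in the AAV-Isl1 plus noise library and 2.13% in the noise-only library. The 25 clusters outside the blood clusters gave 11.5 CPM together, with -4.30 CPM from shares and 15.8 CPM from levels.

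**Figure D5:**
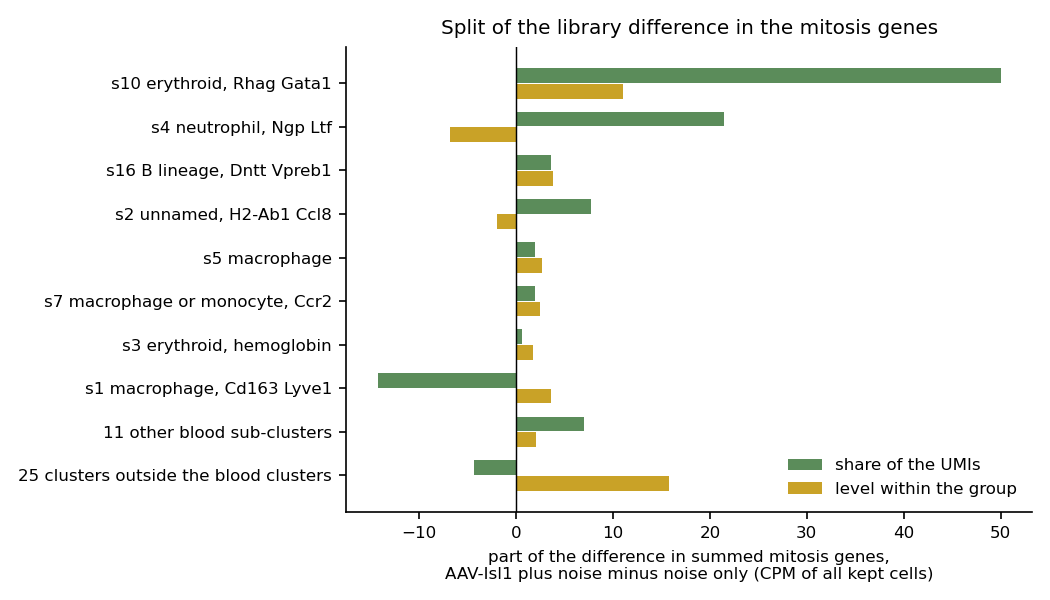
Parts of the difference in the summed mitosis genes (AAV-Isl1 plus noise minus noise only, in CPM of all kept cells) that each group gives through its share of the UMIs (green) and through its level (yellow). The 8 blood sub-clusters with the largest parts are shown with the sums over the 11 others and over the 25 clusters outside the blood clusters; erythroid sub-cluster 10 gives the longest bar, 50.0 CPM by share, and macrophage sub-cluster 1 points the other way.

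For single members the class share part varied. It was 51.6% of the difference for Mki67, 48.2% for Top2a, 66.8% for Hmgb2 and 61.2% for Cks2 with the 29 clusters. Stmn1 was 68.7 CPM lower in the AAV-Isl1 plus noise library, and its share part was -79.0 CPM, larger than the whole difference. This part rests on shares of UMIs. Glial cluster 0 held 5.13% of the UMIs in the AAV-Isl1 plus noise library and 7.93% in the noise-only library, and glial cluster 1 held 3.96% and 7.13%. By cells, Schwann or satellite glia-like cells were 20.5% and 35.3% of those kept. For the replication genes the whole difference was 18.03 CPM and the share part 5.06 CPM (28.1%), but 428% by cells and UMIs per cell. Sub-cluster 10 alone gave 16.7 CPM of it, close to the total, because other groups cancelled.

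Other cell cycle genes outside the 36 were read from lists. Of 54 further mitosis genes with enough UMIs, 34 were called higher and none lower over all kept cells, against the 5.99% and 2.36% of all genes measured. The 3 with the most UMIs, Smc4, Smc2 and Lmnb1, which shape chromosomes and the nuclear lamina, had ratios of 1.37, 1.19 and 1.33 and were not called. Of 48 further replication genes, 13 were called higher and none lower, against the same 5.99% and 2.36%. The 3 with the most UMIs, Rfc1, Dut and Slbp, had ratios of 1.02, 1.14 and 1.04. Of 16 G1 cyclins, kinases and their partners, none was called, with Ccnd2, Cdk4 and Ccnd3 at ratios of 0.850, 0.857 and 0.936.

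None of the 7 Cdk inhibitors, which hold cells out of the cycle, was called over all kept cells. Cdkn1a (p21) was at 292.6 and 352.6 CPM, a ratio of 0.830 (0.808 to 0.852), Cdkn1b (p27) at 199.7 and 240.4 CPM, a ratio of 0.831, and Cdkn1c (p57) at 125.2 and 175.2 CPM, a ratio of 0.714. Cdkn2d had a ratio of 1.11, Cdkn2c 1.05, Cdkn2b 0.761 and Cdkn2a, with 16 and 6 UMIs, 2.46 (0.915 to 7.68). In Schwann or satellite glia-like cells Cdkn1a stood at 891 and 1006 CPM and Cdkn1b at 583 and 679 CPM. In macrophages Cdkn1a was at 831 and 771 CPM, and in the neuron-marker clusters at 62.4 and 44.3 CPM. Within single classes some inhibitors had ratios past 1.5-fold. In erythroid-like cells Cdkn2c, an inhibitor of Cdk4 and Cdk6, had 26 UMIs and 1 UMI, and Cdkn2d, of the same family, had 133 and 14 UMIs, a ratio of 3.34 (1.92 to 6.27). In stria marginal or dark cell-like cells Cdkn1b and Cdkn1c had ratios of 1.64 (1.24 to 2.19) and 2.46 (1.42 to 4.40). Inhibitors were also called higher in unnamed clusters 5, 6, 7 and 22, such as Cdkn1a in cluster 6 (1.96, 1.58 to 2.47), and none was called lower there. None was called in unnamed clusters 10, 13, 14, 16, 20 and 21. The same held for the glia, T or NK cell, endothelial, fibrocyte, macrophage, osteoblast, pericyte and stria intermediate classes. Of all genes measured in erythroid-like cells 8.36% were called higher. No such share is given for the stria marginal class or the unnamed clusters, so the calls there have no background to be read against.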

How the data were processed

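Per the labels' protocols, single cells were captured with 10x Genomics 3′ chemistry. The submitters' processing notes name Cell Ranger 5.0, STAR and Seurat 3.2.2 and mm10. The deposited files hold UMI counts per gene and barcode, made by the authors' pipeline (Cell Ranger 5.0.1, per the file headers) and not normalized. A barcode was kept as a cell from 300 genes upwards if its mitochondrial share was no more than 20%. Scrublet (expected rate 0.06) marked doublets in each library. Its own threshold of 0.528 in the AAV-Isl1 plus noise library marked none, so 0.194, the threshold of the noise-only library, was applied to both, which removed 903 cells (3.98%) and 1296 cells (6.50%), a choice made after seeing the calls. Doublets within a class can remain.

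Clusters were made with scanpy 1.11.5 (counts per 10000, log scale, 3123 variable genes without the 36 members and the other cell cycle lists, 50 principal components, 15 neighbours, Leiden resolution 1). A cluster took the class with the most markers at least 4-fold above all other cells and found in at least 10% of its cells, with at least 3 such markers and at least 1 marker of the class among its 10 leading genes. A class was compared between libraries only from 100 cells in both, and an unnamed cluster from 90 in both.

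UMIs were summed per library and class. Intervals are exact Poisson, conditional binomial and Clopper-Pearson at 95%, and for a count of 0 a limit of 3 counts is given. The CPM of the libraries rest on 36130202 and 33366199 UMIs of kept cells. The split of a difference takes each group's difference in share times its mean level, and its difference in level times its mean share. The gene calls and ratio intervals were tested on simulated independent Poisson counts. The clusters, the mitosis-positive counts and the split were not tested in this way. All 36 members were described, with full values for Mki67, Top2a and the members with most UMIs of each role or class. The members, marker and gene lists were chosen with earlier results of these data known. The alternatives tried are stricter filters, no doublet removal, thinning, other clusterings and other call limits. Promoter sequences come from the RefSeq table (GRCm38.p6).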

Additional observations from a re-analysis of the deposited data

Results flagged for a closer look

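Barcodes marked as doublets and left out of all values above also held mitosis-positive cells. There were 14 among 903 such barcodes (1.55%) in the AAV-Isl1 plus noise library and 4 among 1296 (0.309%) in the noise-only library, a signal in barcodes outside the values reported above. These shares stand beside 1.61% and 0.461% of the kept cells.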

How the results depend on the processing

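No paired analysis was possible because each group is 1 library. For the same reason no replicate could be left out. Of 115 alternative values, 84 kept their direction and stayed within the limits set for them, 30 moved and 1 reversed. The reversed value was the mitosis ratio of the T or NK cell-like class. It was 2.20 for cluster 18 as reported and 0.689 for the class of that name in a clustering with each gene scaled within its library, which need not hold the same cells. The summed mitosis ratio of 2.67 was 3.202 with thinned cells and 3.04 without the 5 cells with the most mitosis UMIs in each library. The erythroid-like ratio of 22.9 was 34 with thinned cells. The macrophage ratio of 0.810 was 0.878 with the strict filter and 0.932 with thinned cells. It was 0.970 without the 5 top cells of each library, which need not be macrophages. With a 2-fold limit 16 members, not 25, were called higher, with no share of all genes to set beside the 16. The share part of the mitosis difference, 52.6%, was 51.5% with the strict filter and also at resolution 0.5, 55.4% with doublets kept, 50.9% thinned, 54.1% with genes scaled within libraries, 68.7% with blood sub-clusters and 80.1% by cells and UMIs per cell. The share part of the replication difference, 28.1%, was 39.2% with the strict filter, 29.8% thinned, 25.9% at resolution 0.5, 29.0% with cell cycle genes kept for clustering, 37.7% scaled, 40.2% by named classes and 428% by cells and UMIs per cell. The cause was not tested. Depth limits classes with few UMIs, where 1 mitotic cell can set a level.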
